A study of Mus musculus with 8 samples.

Results

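The NF-kB subunits and their inhibitors were examined as a set of 10 genes in mouse bone marrow multipotent progenitors (MPPs). The members were chosen by name and comprised the subunit genes Nfkb1, Nfkb2, Rel, Rela and Relb, and the inhibitor and feedback genes Nfkbia, Nfkbib, Nfkbie, Nfkbiz and Tnfaip3. All 10 were found among the 37980 genes of the table, and all 10 were among the 11451 genes that were tested. MPPs give rise to every blood lineage but sustain this only briefly. They were sorted here by c-kit, Sca1 and CD135 on the surface and by the absence of CD48, CD150 and lineage markers, with 1000 cells for each library. There were 4 libraries from C57BL/6 mice that carry the Nup98-Hoxa10hd fusion gene (NA MPPs) and 4 from WT mice (WT MPPs), each named here by group and number, as in NA1. The paper states matched age for the WT mice of its cell cycle assay. The fusion joins part of a nuclear pore protein to the homeodomain of Hoxa10. It is expressed from the Rosa26 locus once Vav-Cre, which is active in blood cells, has removed a stop cassette. The sources used here do not say that the WT mice carry Vav-Cre, nor give an age in weeks or a sex, and do not say that the libraries of a group came from different mice. The p-values therefore measure the spread between these libraries, which may be technical.

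NF-kB transcription factors are dimers of Rel family proteins that wait in the cytoplasm, bound by IkB proteins. Signals from receptors for tumour necrosis factor, interleukins or microbial products activate the IkB kinase complex, which marks IkB for destruction and frees the dimer to enter the nucleus. Several inhibitors are themselves NF-kB targets, so that their messenger RNA rises after activation and closes a negative feedback loop. In blood progenitors the pathway is known for its part in inflammatory and emergency haematopoiesis. RNA levels of the subunits do not report where their proteins are.

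In NA MPPs, RNA of 3 feedback genes was higher than in WT MPPs and no subunit passed the test. Nfkbia, which encodes the IkB alpha inhibitor, was 1.85-fold higher as a ratio of group means. Nfkbiz, which encodes a nuclear IkB protein, was 2.11-fold higher, and Tnfaip3, which encodes a ubiquitin-editing enzyme that dampens the pathway, was 2.71-fold higher. Thus 3 of the 10 members passed as higher and none as lower by limma at an adjusted p below 0.05, while 7 of 10 had an unadjusted p below 0.05. The groups did not overlap for 3 members, Nfkbia, Nfkbie and Nfkbiz, all higher in NA MPPs. Across all tested genes 10.1% passed as higher, 7.87% as lower and 17.9% in either direction, and 32.5% had an unadjusted p below 0.05. The groups did not overlap for 22% of genes, 11.5% with NA MPPs higher and 10.5% with NA MPPs lower. The median log2 fold change of the 10 members was 0.44, beside -0.01 over all genes tested. Without the fourth library of both groups, Nfkbia alone remained past the threshold, as 1 of the 10 members. In that fit 515 of all 11117 genes tested passed, against 2053 of 11451 with all libraries.

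Proximal promoters are shown for Nfkbia and Tnfaip3, which passed the test and hold a match to the binding motif of NF-kB close to the start, and for Nfkb2, a subunit gene with such matches that did not pass. Each line gives the 150 bases before the RefSeq transcription start in GRCm38.p6, 5′ to 3′ on the strand of the gene, and capitals mark matches to the NF-kB consensus on either strand, where overlapping matches run together. The table lists 2 starts for Tnfaip3 and 3 for Nfkb2, of which the first is shown for each.
Nfkbia, chr12:55492648-55492797, minus strand: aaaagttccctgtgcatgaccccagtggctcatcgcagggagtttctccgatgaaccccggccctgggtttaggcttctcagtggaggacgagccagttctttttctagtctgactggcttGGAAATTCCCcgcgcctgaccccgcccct
Tnfaip3, chr10:19015411-19015560, minus strand: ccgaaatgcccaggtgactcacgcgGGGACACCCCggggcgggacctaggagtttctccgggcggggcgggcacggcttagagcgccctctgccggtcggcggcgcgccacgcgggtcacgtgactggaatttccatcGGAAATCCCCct
Nfkb2, chr19:46304587-46304736, plus strand: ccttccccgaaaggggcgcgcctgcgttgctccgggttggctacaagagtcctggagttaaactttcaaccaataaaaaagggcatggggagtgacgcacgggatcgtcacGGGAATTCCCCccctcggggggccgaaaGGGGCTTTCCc

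In these windows the Nfkbia match began 29 bases before the start, the Tnfaip3 matches 125 and 12 bases before it, and the Nfkb2 matches 39, 38 and 11 bases before it. The search covered windows from 250 bases before to 50 bases after a start. The promoter table held such windows for 7 of the 10 members, 10 windows in all, and a match was found in 7 windows of 5 members, Rel and Nfkbie being the other 2. No window was available for Nfkb1, Relb and Nfkbiz, so the promoter of Nfkbiz, which also passed the test, was not searched. Of all 32851 windows in the table, 8.46% held a match. The other Tnfaip3 window held no match, and the other Nfkb2 windows held matches too. Those other Nfkb2 windows overlap and share a matching site, so the windows with a match are not independent of each other. The same windows were also searched for TGACTCA and TGACGTCA on either strand, which are not in capitals above. TGACTCA was found in the first Tnfaip3 window, 136 bases before the start, and in the Nfkbie window, 156 bases before it. Of all windows 5.2% held TGACTCA, and TGACGTCA was in no window of a member. A match is a run of letters and does not show that a factor was bound in these cells.

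Depth was estimated from the value of 1 read in each library and ran from 3876907 to 4916988 reads. Of the genes of the sort, Kit, Ly6a (Sca1) and Flt3 (CD135) were each at 1103 normalised counts or more in every library, and Slamf1 (CD150) and Cd48 were at or below 83.8. Cd34 and Ptprc, which were not part of the sort, were also above 1103 in every library. Of all these genes, Ly6a and Cd48 passed as lower in NA MPPs. The fourth library of each group lay closer to a weighted sum of the other 3 than any other library of its group did. The variance of its relative residual was 0.00646 for WT4, against 0.0129 to 0.0283 for the other WT MPP libraries, and 0.0139 for NA4, against 0.0196 to 0.0429 for the other NA MPP libraries, where counting error gives 0.00331 and 0.00432. The groups also differed in sex-linked transcripts, with Xist at 869 to 1285 normalised counts in WT MPPs and at most 2.8 in NA MPPs, and 4 Y-linked genes at 22.4 to 668 in NA MPPs and at most 1.14 in WT MPPs. Sex and genotype cannot be told apart here, and neither can fewer cells of a type and less RNA per cell.

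**Figure D1:**
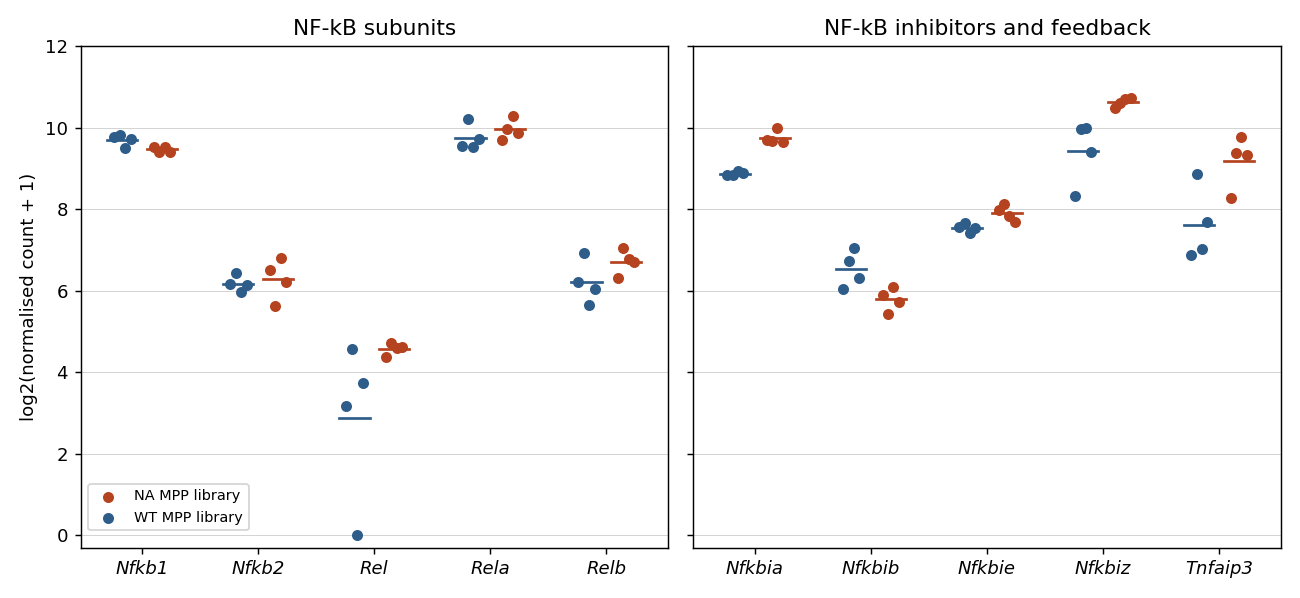
Level of each NF-kB member in the 8 MPP libraries, as log2(normalised count + 1), with subunits on the left and inhibitor and feedback genes on the right. Each point is 1 library and each short line the mean of 4. Nfkbia, Nfkbie and Nfkbiz had no overlap between NA and WT MPPs, whereas the subunits all overlapped.

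Rela and Nfkb1 were the abundant subunits. Rela (chr19:5637483-5648130, plus strand, GRCm38), which encodes a subunit with an activation domain, was at 832, 1003, 1241 and 935 normalised counts in NA1 to NA4 and at 742, 1188, 733 and 836 in WT1 to WT4. NA3 and WT2 were the high libraries of their groups, and the groups overlapped. Limma put the difference at 0.21 ± 0.15 on the log2 scale (estimate ± SE, adjusted p = 0.359), and the 95% interval ran from -0.11 to 0.53. Nfkb1 (chr3:135584655-135691547, minus strand), which encodes a precursor that is processed to a DNA-binding subunit without an activation domain, was at 739, 669, 732 and 679 in NA MPPs and at 868, 897, 723 and 843 in WT MPPs. Only WT3 lay within the range of the NA MPP libraries. By limma the difference was -0.24 on the log2 scale with a standard error of 0.09 and an interval from -0.44 to -0.04, which did not pass (limma adjusted p = 0.0942), although it did without WT3 (0.0402) and with scaling to equal totals (0.0380).

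The subunits of the alternative pathway, in which the Nfkb2 precursor is processed and pairs with Relb, did not differ beyond the spread between libraries. Nfkb2 (chr19:46304320-46312385, plus strand) was at 90.5, 47.9, 110 and 73.2 normalised counts in NA MPPs and at 71.0, 84.9, 61.5 and 69.2 in WT MPPs. The NA MPP libraries enclosed the WT MPP libraries on both sides, and limma gave 0.11 on the log2 scale with an interval from -0.43 to 0.65 (limma adjusted p = 0.798), which turned to -0.06 without NA3. Relb (chr7:19606217-19629438, minus strand) was at 78.4, 131, 109 and 104 in NA MPPs and at 72.8, 120, 49.0 and 64.8 in WT MPPs. WT2 was above 3 of the NA MPP libraries. The difference was 0.51 on the log2 scale with an interval from -0.05 to 1.07 (limma adjusted p = 0.191), and it passed when WT2 was left out (0.0454).

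Rel (chr11:23736847-23770970, minus strand), which encodes c-Rel, a subunit best known from lymphocytes, had the fewest reads. It was at 19.6, 25.4, 23.1 and 23.6 normalised counts in NA MPPs and at 7.99, 22.6, 0 and 12.4 in WT MPPs. No read was found in WT3, which allows up to 3.42 normalised counts there. WT2 alone reached the range of the NA MPP libraries. Its log2 difference of 1.70 had an interval from 0.07 to 3.34 and did not pass (limma adjusted p = 0.137), and without WT3 it was 0.75. At most 27 reads lay behind any of these values, and counting error alone gives a coefficient of variation of 30.7% at the WT mean against the 87.7% that was measured. The log2 difference of Rel was 1.97 with 0.5 added to the counts in place of 1, and 1.07 with 5 added. As a ratio of group means Rel was 2.13-fold higher in NA MPPs.

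Among WT MPPs, all 5 subunits were highest in WT2 and lowest in WT3, while WT1 and WT4 changed places between them. Of all 10 members, 7 were highest in WT2. In NA MPPs, Rela and Nfkb2 were highest in NA3, Rel and Relb in NA2 and Nfkb1 in NA1. The measured variation of Rela among WT MPPs, 24.4%, was above the 3.4% that counting error gives, and that of Nfkb2, 13.6%, was close to its 11.9%.

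Nfkbia (chr12:55489410-55492647, minus strand) rose in NA MPPs and had the smallest standard error of the 3 members that passed. IkB alpha holds dimers in the cytoplasm and is resynthesised quickly after activation. Its normalised counts were 832, 809, 1014 and 797 in NA MPPs and 453, 454, 491 and 471 in WT MPPs. Every NA MPP library was above every WT MPP library. The log2 fold change was 0.88, with an SE of 0.10 (limma adjusted p = 5.28e-05), and it passed in all 20 alternative fits. The WT MPP libraries varied by 3.81%, below the 4.65% that counting error gives.

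The genes of the other cytoplasmic IkB proteins did not pass. Nfkbie (chr17:45555703-45563169, plus strand), for IkB epsilon, was at 249, 277, 227 and 204 normalised counts in NA MPPs and at 186, 200, 169 and 185 in WT MPPs. The groups did not overlap, but NA4 and WT2 nearly met, and the log2 fold change of 0.36 with an interval from 0.07 to 0.65 missed the threshold (limma adjusted p = 0.0773). With the trend on transcript GC content removed it passed (0.0237). Nfkbib (chr7:28758251-28767512, minus strand), for IkB beta, was at 58.8, 42.3, 67.4 and 52.0 in NA MPPs and at 64.8, 105, 131 and 78.1 in WT MPPs. It had the opposite sign, and only NA3 and WT1 overlapped. The estimate was -0.74 on the log2 scale with an interval from -1.28 to -0.20 (limma adjusted p = 0.0553), and it passed as lower without NA3 (0.0423), without WT1 (0.0335) and with scaling to equal totals (0.0344). Annotated exons of Sirt2 and Ccer2 on the opposite strand share 1.94% and 14.5% of the exon bases of Nfkbib, and the strand use of the counting was not given in the sources used here. For Nfkb2 the shares were 6.52% with Psd and 11.6% with AC114539.1.

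Nfkbiz (chr16:55811375-55838899, minus strand) rose in NA MPPs. Its product, IkB zeta, acts in the nucleus and can assist as well as inhibit NF-kB dimers at their target genes. The NA MPP libraries were at 1415, 1544, 1674 and 1691 normalised counts and the WT MPP libraries at 321, 998, 1008 and 670. The groups did not overlap, although WT1 was far below the other WT MPP libraries. By limma the log2 fold change was 1.21 with a standard error of 0.26 (adjusted p = 0.00663), and 0.85 without WT1 (0.000876). The call was lost without the fourth library of both groups (0.0535), without the low-value filter (0.0501) or without a variance trend (0.0541).

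Tnfaip3 (chr10:19000910-19015657, minus strand) showed the largest change of a called member and a wide spread in both groups. Its product removes activating ubiquitin chains from proteins upstream of the IkB kinase. Normalised counts were 306, 659, 868 and 637 in NA MPPs and 115, 463, 129 and 204 in WT MPPs. WT2 lay above NA1, so the groups overlapped in this pair. On the log2 scale limma gave 1.57 with a standard error of 0.37 (adjusted p = 0.0106). This too was lost without NA4 and WT4 (0.0673), without the low-value filter (0.0672) or without a variance trend (0.0657).

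**Figure D2:**
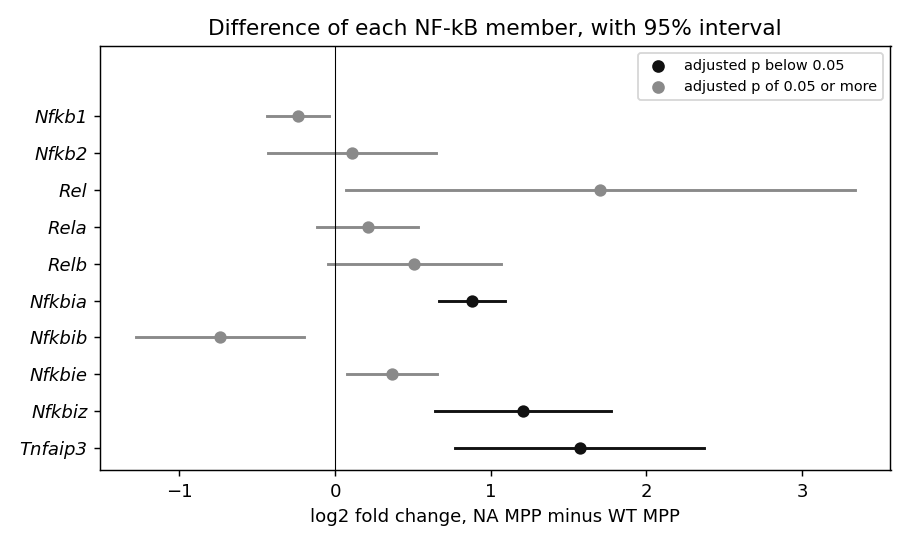
Log2 fold change of each NF-kB member, NA MPP minus WT MPP, on the log2(normalised count + 1) scale. Points are estimates of limma and bars their 95% intervals. The intervals of Nfkbia, Nfkbiz and Tnfaip3, drawn in black, lay above 0 at an adjusted p below 0.05, and that of Rel was the widest.

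For comparison between genes, counts were divided by the length of the principal transcript. In WT MPPs the order per kilobase was Rela at 322 ± 78.7 normalised counts per kilobase, Nfkbia at 296 ± 11.3, Nfkb1 at 202 ± 18.6 and Nfkbiz at 182 ± 79.1 (SD, n = 4). At these lengths Rela and Nfkbia overlapped, as did Nfkb1 and Nfkbiz, and Nfkbia stood above Nfkb1 in every library. Nfkbie, Tnfaip3, Nfkbib, Relb and Nfkb2 followed, each overlapping the next, from 76.0 ± 5.37 down to 22.8 ± 3.11, and Rel was last at 1.44 ± 1.26 (SD, n = 4). In NA MPPs Nfkbia came first at 547 ± 64.3, apart from Nfkbiz at 384 ± 31.3 and Rela at 369 ± 63.9, which overlapped (SD, n = 4). Nfkb1 at 171 ± 8.71 and Tnfaip3 at 140 ± 52.5 overlapped, and Rel was again last at 3.07 ± 0.32 (SD, n = 4). The order of the leading genes depends on the length used. With the median length of the protein-coding transcripts, Rela came before Nfkbia in both groups, at 651 against 547 normalised counts per kilobase in NA MPPs and 568 against 296 in WT MPPs. The ratio of Nfkbia to Rela was then 0.787 to 0.976 in NA MPPs and 0.373 to 0.653 in WT MPPs, below 1 in every library. At that length Nfkb1 was at 277 in WT MPPs, close to Nfkbia.

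The balance of the 3 cytoplasmic IkB genes against the 5 subunit genes was described from the same values. Per kilobase, the sum of Nfkbia, Nfkbib and Nfkbie was 1.19, 1.06, 1.06 and 1.05 times the sum of the subunits in NA1 to NA4, and 0.73, 0.57, 0.91 and 0.73 times in WT1 to WT4. All NA MPP libraries were thus above all WT MPP libraries. The IkB sum ran from 614 to 768 normalised counts per kilobase in NA MPPs and from 395 to 444 in WT MPPs, while the subunit sum overlapped at 553 to 722 and 487 to 740. Nfkbia made up 79.2% to 83.6% of the IkB sum in NA MPPs and 68.3% to 72.7% in WT MPPs. The size of the ratio rests on the transcript length used. With the median length it was 0.696 to 0.795 in NA MPPs and 0.395 to 0.642 in WT MPPs, and these also did not overlap. Rela and Nfkb1 together gave most of the subunit sum in both groups, Rela with 59.6% ± 3.28 in NA and 54.9% ± 3.53 in WT MPPs and Nfkb1 with 28.0% ± 3.34 and 35.2% ± 4.05 (SD, n = 4).

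**Figure D3:**
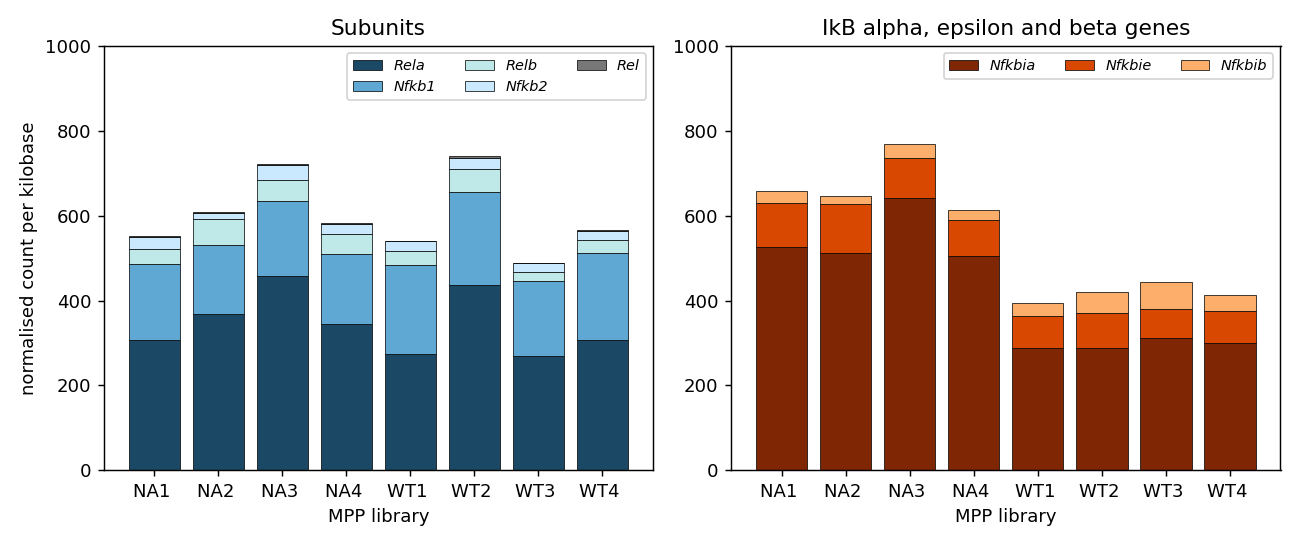
Normalised counts per kilobase of principal transcript in each MPP library, stacked by gene, for the 5 subunits (left) and the genes of IkB alpha, epsilon and beta (right). The IkB stack was between 614 and 768 in NA MPPs and between 395 and 444 in WT MPPs, most of it Nfkbia, whereas the subunit stacks overlapped.

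The other genes of the pathway were taken from 6 lists. Together these held 130 genes that are not members, of which 103 were tested, and 16 passed as higher and 8 as lower in NA MPPs by limma. This is 23.3% of them, beside 17.9% of all genes. Their median log2 fold change was 0.04. Without the fourth library of both groups 6 passed as higher and 3 as lower, and the same 9 genes passed in all 20 alternative fits. Leaving out those libraries lowered the calls over all genes too, from 2053 to 515.

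Ligands and receptors came first. Of 11 ligand genes 5 were tested and none passed, and Tnf, the founding cytokine of the family, averaged 19.7 ± 8.56 normalised counts in the NA MPP libraries and 17.1 ± 8.24 in the WT MPP libraries (SD, n = 4). Of 18 tested receptor genes 2 passed as higher and 3 as lower, which is 27.8% of them beside 17.9% of all genes. Il18rap, a chain of the interleukin 18 receptor, fell from 459 ± 62.7 to 191 ± 31.6 (SD, n = 4, log2 fold change -1.26, limma adjusted p = 6.80e-05). Tnfrsf1a, the main receptor for tumour necrosis factor, fell from 732 ± 49.6 to 558 ± 89.1 (SD, n = 4, limma adjusted p = 0.0256). Il1r1, the signalling receptor for interleukin 1, rose from 105 ± 25.8 to 171 ± 31.7 (SD, n = 4, limma adjusted p = 0.0306), and Tnfrsf13c, the BAFF receptor, rose by 0.64 on the log2 scale (limma adjusted p = 0.0476). Of these 4, Il18rap alone passed without the fourth library of both groups (0.00260).

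Signal relay genes passed in both directions, at shares near that of all genes. Of 25 tested adaptors and ubiquitin ligases, Irak2, Birc3 and Tirap passed as higher and Rbck1 as lower. This is 16% of them, and 21.4% of the 14 kinases and their partners passed, beside 17.9% of all genes. Birc3, a ubiquitin ligase of receptor complexes and an NF-kB target, rose from 201 ± 17.4 to 329 ± 28.8 normalised counts (SD, n = 4, log2 fold change 0.71, limma adjusted p = 0.00142). Irak2, a kinase-like adaptor of interleukin and Toll-like receptors, rose by 1.22 (limma adjusted p = 0.00807) and Tirap, an adaptor of Toll-like receptors, by 0.68 (0.0210). Rbck1, a part of the linear ubiquitin ligase, fell by 0.40 (0.0115). Of 14 kinases and their partners, all tested, Map3k3 rose from 105 ± 34.3 to 236 ± 41.7 (SD, n = 4, limma adjusted p = 0.00383) and Tank, a scaffold, rose by 0.52 (0.0280). Ikbkb, the catalytic kinase that marks IkB for destruction, fell from 632 ± 42.2 to 486 ± 46.7 normalised counts (SD, n = 4, log2 fold change -0.38, limma adjusted p = 0.0187). Its call was lost without NA4 (0.0672). Without the fourth library of both groups, Birc3 (0.0400) and Map3k3 (0.0397) passed, and Irak2 (0.0594), Tirap (0.170), Rbck1 (0.117), Tank (0.178) and Ikbkb (0.141) did not.

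Of 17 other inhibitors and deubiquitinases tested, 1 passed as higher and 2 as lower. This is 17.6% of them, about the 17.9% of all genes. Bcl3, an atypical nuclear IkB protein like Nfkbiz, fell from 117 ± 23.9 to 35.4 ± 10.5 normalised counts (SD, n = 4, log2 fold change -1.72, limma adjusted p = 0.000475). Tnip3, a partner of the Tnfaip3 enzyme, fell from 340 ± 27.8 to 184 ± 42.4 (SD, n = 4, limma adjusted p = 0.00225). Rnf11, another partner of that enzyme, rose from 554 ± 37.9 to 954 ± 126 (SD, n = 4, limma adjusted p = 0.000255). These 3 passed in all 20 alternative fits.

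Of 40 listed target genes 30 were tested, 9 passed as higher and 2 as lower, and the median log2 fold change was 0.51. This is 36.7% of them, beside 17.9% of all genes, of which 10.1% passed as higher and 7.87% as lower. Most of these calls were lost without the fourth library of both groups, a fit in which calls over all genes fell from 2053 to 515. Birc3 and Bcl3 were counted here as well, and Relb was among the tested targets. Cd83 and Cd69, surface proteins that appear on activated lymphocytes and antigen-presenting cells, had the highest changes that passed. Cd69 rose from 195 ± 96.2 to 559 ± 186 normalised counts (SD, n = 4, log2 fold change 1.62, limma adjusted p = 0.00382). Cd83 rose from 17.6 ± 8.01 to 62.5 ± 36.2 (SD, n = 4, log2 fold change 1.63, limma adjusted p = 0.0294), but did not pass without the fourth library of both groups (0.157). The lowest were Bcl3 and Irf8, a transcription factor of monocytes and dendritic cells, which fell from 48.9 ± 8.61 to 23.7 ± 7.47 (SD, n = 4, limma adjusted p = 0.0335) and did not pass without those libraries (0.182). The targets Il6, Sele and Nos2 were at 0 in all 8 libraries.

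**Figure D4:**
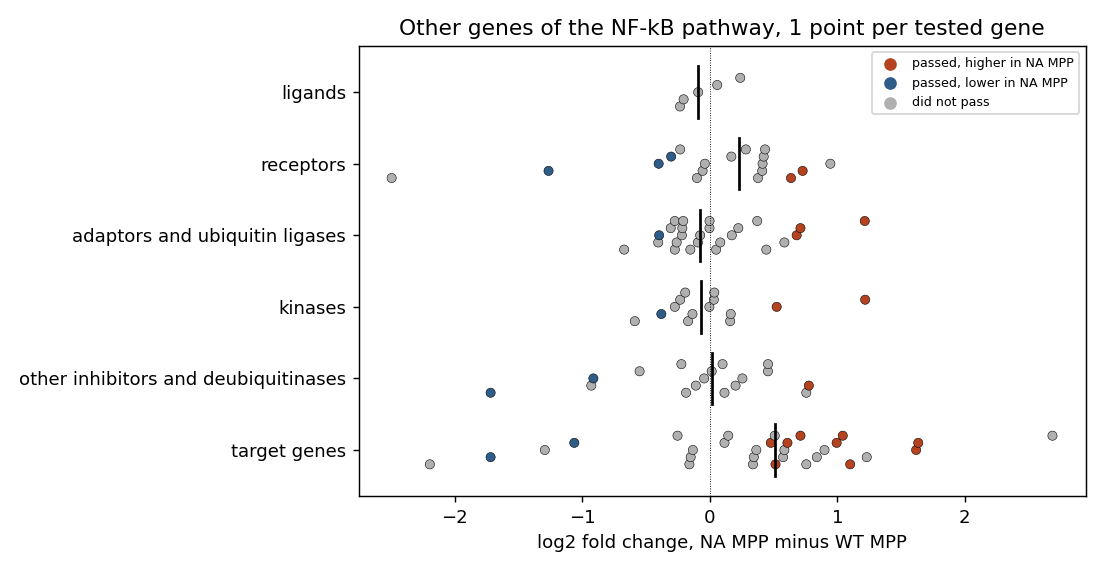
Log2 fold change, NA MPP minus WT MPP, of the tested genes of 6 NF-kB pathway lists, 1 point per gene, with a vertical line at the median of each list. Genes that passed limma at an adjusted p below 0.05 are coloured by direction. The target genes had 9 higher and 2 lower, and none of the 5 ligands passed.

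The summed level of genes that respond quickly to any stimulus, cell sorting included, was also higher in NA MPPs than in WT MPPs. Within the groups its order of libraries matched those of Nfkbia, Nfkbiz and Tnfaip3 only in part. A list of 28 immediate early and dissociation response genes held no member but shared Junb, Myc and Ier3 with the target genes. Of these 28, 25 were tested, and 15 passed as higher and none as lower by limma. This is 60% of those tested, beside 10.1% higher and 7.87% lower over all genes. Without the fourth library of both groups 8 of these 15 passed, where 370 of all 11117 genes tested passed as higher. The summed level was 51095, 56407, 61868 and 52739 normalised counts in NA1 to NA4 and 9911, 27923, 23639 and 17405 in WT1 to WT4. Fos, a subunit of the AP-1 factor, was the largest part of it in each NA MPP library, at 19676 to 21297, and was at 804 to 3154 in WT MPPs, where Zfp36 was above it in all 4 libraries. Within NA MPPs, Tnfaip3 and this sum had the same order of libraries, NA1 lowest and NA3 highest, but Nfkbiz was highest in NA4, whose sum was below those of NA2 and NA3. Within WT MPPs, WT1 was lowest and WT2 highest in both the sum and Tnfaip3, but WT3 had a higher sum than WT4 and less Tnfaip3, at 129 against 204. Nfkbiz was lowest in WT1 and highest in WT3. Nfkbia stayed between 453 and 491 while the sum ran from 9911 to 27923 in the same 4 libraries. The part of this response in the difference between the groups was not tested.

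**Figure D5:**
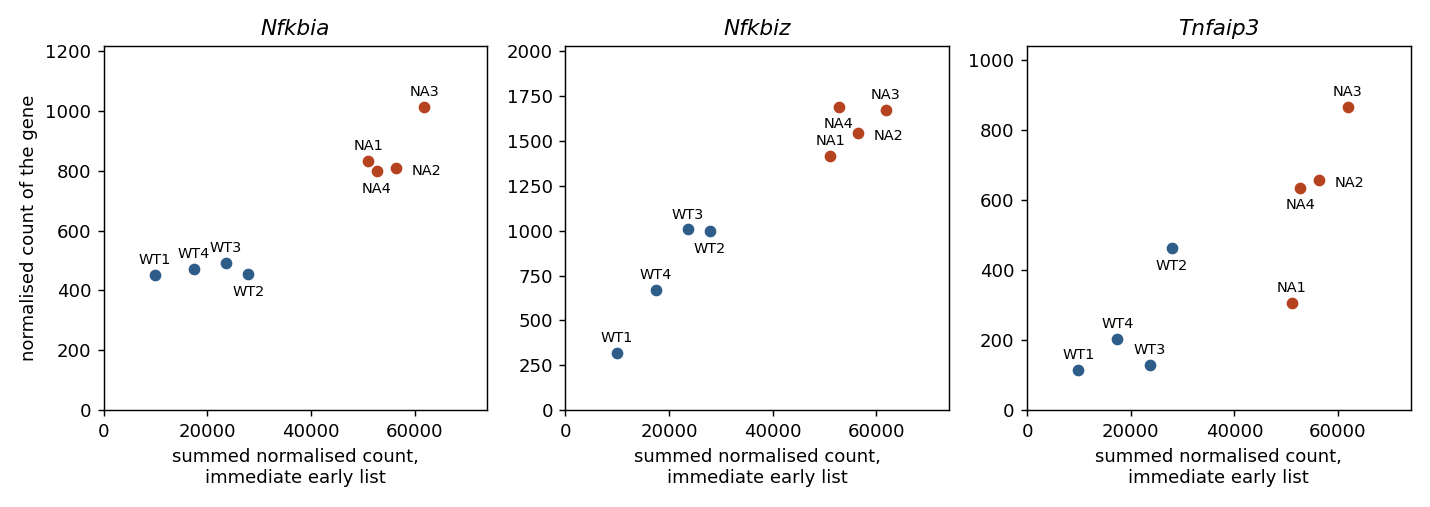
Normalised count of Nfkbia, Nfkbiz and Tnfaip3 in each library against the summed normalised count of 28 immediate early and dissociation response genes. NA MPP libraries lay at 51095 or more on the horizontal axis and WT MPP libraries at 27923 or less. Nfkbia was nearly level among the WT MPP libraries, whereas Nfkbiz was lowest in WT1.

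Markers of other blood and marrow cells were read beside these results, and none of the marker genes passed as higher in NA MPPs. Over 8 macrophage markers, of which 4 were tested and none passed, the summed level was 61.9 to 73.7 normalised counts in NA MPPs and 153 to 173 in WT MPPs. Over 13 granulocyte and monocyte markers, 4 were tested and 2, Mpo and Prtn3, passed as lower, the sums were 3126 to 3372 and 3575 to 4625, and Elane and Ly6g were at 0 throughout. Of 10 T and NK cell markers 3 were tested and none passed, with sums of 148 to 171 and 134 to 155 and with Cd3d, Cd3e, Cd3g, Cd8a, Gzma and Ncr1 at 0 in all libraries. Of 8 B cell markers 1 was tested and did not pass, with sums of 101 to 239 and 182 to 269 and with Ms4a1, Pax5 and Igll1 at 0. Over 9 erythroid markers 1 was tested and passed as lower, Hbb-bt, whose near-identical copies make its share of reads uncertain, with sums of 35.4 to 64.9 and 147 to 296 and with Alas2 at 0. The sums of 7 megakaryocyte markers were 2795 to 3089 and 2616 to 2771, with none of the 6 tested passing. Those of 8 stroma and endothelium markers were 524 to 749 and 466 to 601, with none of the 3 tested passing. In NA3, which had the highest of these sums, 2 stromal markers that were too low to be tested stood out. Cxcl12 was at 7.47, 0, 101 and 28.3 in NA1 to NA4 and at 3.55 to 13.7 in WT MPPs, and Lepr was at 19.4 in NA3. Col1a2 went the other way, lower in every NA MPP library than in any WT MPP library, and did not pass. The part of such cells in the results was not tested.

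The genes most like 2 of the called members were named by the distance between their profiles over the 8 libraries. Among 8999 other genes whose mean level reached 50, the profiles nearest to that of Tnfaip3, which had the largest change of a called member, were Bhlhe40, Vhl and Tiparp, with a root mean square difference of 0.27, 0.27 and 0.32 on the log2 scale. For Nfkbia, which had the smallest change of a called member, they were Ewsr1, Hnrnpu and Tnpo1, at 0.09, 0.09 and 0.10. The distance is a description, and the difference between the groups forms a large part of each profile.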

How the data were processed

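RNA of 8 libraries of 1000 sorted MPPs each was measured from amplified cDNA in tagmentation libraries. Per the labels and the study's methods, the authors quantified genes with RSEM on mm10 and used DESeq2 for normalisation; versions, annotation and strand use were not given in the sources used here. The deposited values are a normalised signal, expected counts divided by 1 size factor per library: from 98.1% to 98.6% of values above 0.5 lay within 0.02 of a whole multiple of 1 step per library, which gave the estimated reads. Counting intervals and floors (3 reads) cover counting error only, since amplified cDNA carries no molecular identifiers. Symbols, positions and transcript lengths came from GENCODE M21 (GRCm38) and promoters from RefSeq, and 32916 of 37980 rows had a symbol. All values of the table are per library, and no column was left out.

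The filter kept genes that reached 10 normalised counts in 4 or more of the 8 libraries. NA MPPs were set against WT MPPs on log2(normalised count + 1) by limma (version 3.58.1, run under R 4.3.3), two-sided, with a mean-variance trend, no covariate and Benjamini-Hochberg adjustment over all 11451 genes. A fold change is on that scale, where the added 1 shrinks changes of low genes. It can still exceed the ratio of group means where a library is at 0, as for Rel. The planned count tests on recovered reads were not run, because fractional assignments remained below 1 read. The members and lists were chosen with earlier results of these data known. Named genes were the members, of each pathway list all genes past the threshold, or the 2 highest and 2 lowest where more than 4 passed, and the 3 nearest profiles of the called members with the highest and the lowest change. Not every marker gene is reported here by name.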

Additional observations from a re-analysis of the deposited data

Results flagged for a closer look

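Each group of 4 values of a member was examined for a single distant library with the 95% threshold of Dixon's ratio. This picked 1 of the 20 groups, and chance picks about 1 in 20. It was Nfkbia in NA3, at 1014 normalised counts where NA1, NA2 and NA4 were at 797 to 832, a ratio of 0.841. Leaving NA3 out gave Nfkbia a log2 fold change of 0.80 in place of 0.88, and the gene still passed (limma adjusted p = 0.000135).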

How the results depend on the processing

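Of 199 values of single members under 20 alternatives, 185 kept their direction and their side of the threshold, 7 came to pass, 6 no longer passed and 1 turned. The turned value was Nfkb2 without NA3, at -0.059 (limma adjusted p = 0.887), and its log2 fold change ran from -0.059 to 0.33 when 1 library was left out. Across all 20 alternatives the adjusted p ran from 1.36e-05 to 0.00344 for Nfkbia, from 0.000876 to 0.0541 for Nfkbiz and from 0.000574 to 0.0673 for Tnfaip3. Members that passed as higher numbered 1 without the low-value filter, 1 without a variance trend and 1 without NA4 and WT4, and from 3 to 4 when 1 library was left out. Members that passed as lower numbered 2 with scaling to equal totals and from 0 to 1 when 1 library was left out. Pathway genes numbered 10 higher and 5 lower without the low-value filter, 10 and 5 without a variance trend, 6 and 3 without NA4 and WT4, and from 8 to 19 and from 4 to 11 when 1 library was left out. All genes that passed numbered 2053, and 515 without NA4 and WT4, and from 1106, without NA4, to 2141, without NA3, when 1 library was left out (1294 without WT4). The cause was not tested. Scaling to equal totals moved the median of all genes from -0.01 to -0.08 and the share of calls that were higher from 56.1% to 41.3%.

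The replicate numbers of the titles were not taken as pairs, since deviations of same-numbered libraries correlated by 0.09, 0.03, 0.01 and 0.16. With the number as a replicate block, 3 members passed as higher and 0 as lower, 17 and 9 pathway genes, and 2004 genes in all. The GC correction was chosen after seeing the data. Tests of counts by edgeR and DESeq2 were planned and not run. Depth limits Rel most, with at most 27 reads in a library.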
